A study of Homo sapiens with 6 samples.

Results

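Leukaemic blasts are held in the bone marrow by a small set of surface proteins, and 9 of their genes were followed here in Kasumi-1, a human acute myeloid leukaemia cell line that carries the RUNX1-RUNX1T1 fusion. The genes are the chemokine receptor CXCR4, the integrin alpha chains ITGA4, ITGA5, ITGA6 and ITGAL, the integrin beta chains ITGB1 and ITGB2, the selectin ligand SELPLG and the adhesion molecule ICAM1. They were chosen by name, as the rows of the deposited expression table whose Ensembl identifier carries 1 of these symbols, and all 9 were found among 27576 genes. Cells grown with 20% fetal bovine serum received recombinant human interleukin-10 (IL-10) at 10 ng/ml (3 libraries) or bovine serum albumin (BSA) at 0.5% as control (3 libraries) for 72 h. Whether the replicates came from separate cultures is not in the labels. The p-values below therefore reflect the spread of these libraries, which may be technical.

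In the marrow, stromal cells secrete the chemokine CXCL12, and CXCR4 on the blast follows it. Integrins are pairs of 1 alpha and 1 beta chain that bind matrix or other cells once the cell has activated them from inside: alpha-4 with beta-1 (VLA-4) binds VCAM1 and fibronectin, alpha-5 with beta-1 (VLA-5) binds fibronectin, alpha-6 with beta-1 binds laminin, and alpha-L with beta-2 (LFA-1) binds the ICAM proteins. SELPLG encodes PSGL-1, the mucin on which leukocytes roll along selectins of the vessel wall. IL-10 signals through JAK1, TYK2 and STAT3.

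Values below are normalised read counts, the reads of a gene divided by a size factor of its library, and differences are given on the log2(value + 1) scale. Recovered depth was 20750115 to 24222897 reads per library. The cells carried the transcripts of the line: all 8 identity genes (KIT, CD34, RUNX1T1, RUNX1, MPO, CD33, SPI1 and MYB) stood above 3 reads in every library. IL-10 replicate 2 stood apart from the other libraries by the GC content of its transcripts. The replicate 2 libraries of both groups held liver transcripts. Fold changes of the 7 receptor genes with a mean of at least 50 are therefore also given without each replicate 2 library. Means and medians of other genes include replicate 2 unless stated. Summed over 14 liver genes, without SERPINA1, which is abundant in every library, control replicate 2 reached 1229 and IL-10 replicate 2 reached 581, against 14.96 to 29.4 in the other 4 libraries. With IL-10, 0 of the 9 receptor genes passed the threshold of an adjusted p under 0.05 in limma (n = 3 against 3), and over all 21946 genes tested the share called was 0%. At an unadjusted p under 0.05 the count was 0 of 9, beside 1.57% of all genes in limma. edgeR also called 0 of the 9, as did DESeq2. The control and IL-10 ranges overlapped in all 9. Over all genes tested, 5.87% had groups that did not overlap, 2.85% with IL-10 higher and 3.02% with IL-10 lower.

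CXCR4 transcripts were almost absent from these cells. CXCR4 (ENSG00000121966, GRCh38 chromosome 2, 136114349 to 136118165) stood at 0.93, 0.99 and 5.34 in control replicates 1 to 3 and at 2.14, 0 and 4.75 in IL-10 replicates 1 to 3, which were 1, 1, 6, 2, 0 and 5 reads. The replicate 3 libraries of both groups were the highest, the groups overlapped, and the library with 0 reads allows a value of up to 3.53. In all, control libraries held 8 reads, or 0.114 CPM, that is, scaled to all recovered reads (exact Poisson 95% interval 0.0492 to 0.225, counting error only), and IL-10 libraries 7 reads, or 0.105 CPM (0.0423 to 0.217). Both group means, 2.42 ± 2.53 (SD, n = 3) and 2.30 ± 2.38, were under a floor of 3 reads per library, so no fold is given.

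ACKR3, the other receptor that binds CXCL12, was measured well above CXCR4. It was chosen after its values were seen. Control libraries averaged 160 ± 19.9 and IL-10 libraries 158 ± 17.8 (n = 3), with a range of 139 to 179. Per kb of the longest transcript, the scale on which genes of unequal length can be set side by side, ACKR3 averaged 72.2 and CXCR4 1.24. The G protein and kinase genes that act downstream of such receptors were abundant: GNAI2, an inhibitory G protein alpha subunit, stood at 13281 ± 895 and 16253 ± 6122, and GRK2, a kinase that desensitises receptors, at 16001 ± 2360 and 20364 ± 10291. The higher IL-10 means came from replicate 2: IL-10 replicates 1 to 3 were at 13346, 23286 and 12126 for GNAI2 and at 15115.5, 32220 and 13755 for GRK2. Of 20 genes listed for CXCR4 signalling and turnover 19 were measured and tested, 0 passed, and the median log2 fold change was 0.11, against 0.02 over all genes tested. Without IL-10 replicate 2 the list's median was -0.02. A pair is the control and IL-10 library of 1 replicate number, and the list's median log2 ratio was 0.02, 0.43 and 0.00 for pairs 1 to 3.

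Genes whose values moved over the 6 libraries most like those of CXCR4 were RGS2, TP53INP1 and CCL3L3. Their root-mean-square distance to its centred log2 profile was 0.20, 0.24 and 0.30, against a median of 0.97 over 11605 genes with a mean of at least 50. The profile of CXCR4 rests on 0 to 6 reads per library, so this likeness is no more than a description. RGS2, a regulator that shortens G protein signals, was also in the signalling list and stood at 171, 125 and 408 in control and 186, 67.0 and 453 with IL-10, highest in the replicate 3 libraries.

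**Figure D1:**
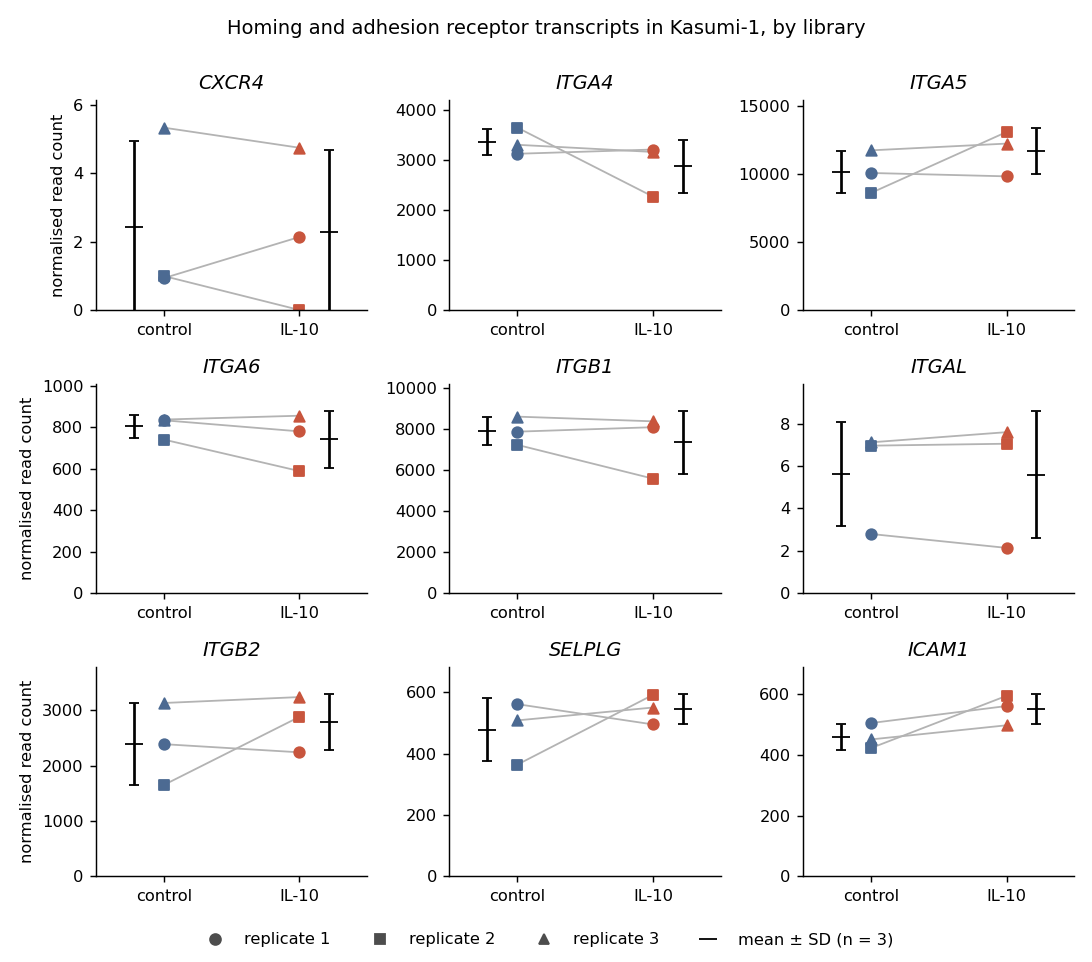
Normalised read count (vertical axes, linear from 0) of the 9 receptor genes in the 3 control and 3 IL-10 libraries; symbols give the replicate number, grey lines join libraries of 1 number, and bars are mean ± SD (n = 3), cut at 0 for CXCR4. CXCR4 and ITGAL lie at 0 to 7.60 in every library, and the steepest lines of ITGA4, ITGA5, ITGB2 and SELPLG belong to replicate 2.

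The most abundant receptor transcripts were those of the fibronectin receptor VLA-5. ITGA5 (ENSG00000161638, chromosome 12, 54395261 to 54419460) stood at 10089, 8614 and 11754 in control and at 9840, 13108 and 12252 with IL-10. Its highest and its lowest library were the replicate 2 libraries of IL-10 and control, and the groups overlapped. ITGB1 (ENSG00000150093, chromosome 10, 32900319 to 33005792), the beta chain shared by alpha-4, alpha-5 and alpha-6, stood at 7860, 7218 and 8591 in control and at 8077, 5574 and 8363 with IL-10. Here IL-10 replicate 2 was the lowest of the 6 libraries, and the other 5 lay within 7218 to 8591.

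ITGA4 (ENSG00000115232, chromosome 2, 181457202 to 181536187), the VLA-4 chain that binds VCAM1, stood at 3125, 3648 and 3304 in control and at 3209, 2267 and 3161 with IL-10. Control replicate 2 was the highest and IL-10 replicate 2 the lowest library, with the other 4 between 3125 and 3304. ITGA6 (ENSG00000091409, chromosome 2, 172427354 to 172506282), the laminin receptor chain, stood at 834, 741 and 837 in control and at 780, 589 and 856 with IL-10, again with IL-10 replicate 2 lowest. An antisense gene, AC078883.1 (ENSG00000225205), overlaps ITGA6 and was at 30.6 to 159, and since the use of strand in counting is not given in the sources used here, reads of these genes may not be told apart.

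The differences with IL-10 were within the spread between libraries for all 4 of these chains. The log2 fold change was 0.21 for ITGA5 (SE 0.19, 95% interval -0.22 to 0.64), -0.24 for ITGA4 (SE 0.18, -0.65 to 0.18), -0.13 for ITGA6 (SE 0.19, -0.56 to 0.29) and -0.12 for ITGB1 (SE 0.20, -0.57 to 0.32), each with an adjusted p of 0.982 in limma. Most of each difference came from pair 2. From pair 1 to pair 3, ITGA4 had log2 ratios of 0.04, -0.69 and -0.06. For ITGA5 the ratios were -0.04, 0.61 and 0.06. ITGB1 had 0.04, -0.37 and -0.04, and ITGA6 had -0.10, -0.33 and 0.03. Without IL-10 replicate 2 the fold changes were -0.07 for ITGA4, 0.12 for ITGA5, 0.03 for ITGA6 and 0.06 for ITGB1. Without control replicate 2 they were, in the same order, -0.18, 0.10, -0.19 and -0.19.

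Per kb of transcript, ITGA5 was the leading alpha chain in every library. Its level averaged 2190 per kb over the 6 libraries, beside 2012 for ITGB1, 745 for ITGA4 and 138 for ITGA6. By this length ITGA5 and ITGB1 did not differ beyond their spread: ITGA5 was the higher of these chains in 3 of 6 libraries. With the longest protein-coding transcript as length, ITGA5 averaged 2462 and ITGB1 2012, so how far they differ depends on the length used. Of the summed per-length level of the 3 alpha chains, ITGA5 made up 69.3%, 63.2% and 71.5% in control and 68.5%, 80.2% and 73.0% with IL-10. ITGA4 made up 25.6%, 31.9% and 24.0% in control and 26.7%, 16.6% and 22.5% with IL-10, so that control replicate 2 had the largest ITGA4 share and IL-10 replicate 2 the smallest. The mean share of ITGA5 was 5.91 percentage points higher with IL-10 (68.0 ± 4.28 and 73.9 ± 5.92, n = 3, exact two-sided permutation p = 0.3, or 0.533 adjusted over 4 such measures). The difference, IL-10 minus control, was -5.28 points for ITGA4 (exact permutation p = 0.3, adjusted 0.533) and -0.63 points for ITGA6 (exact permutation p = 0.4, adjusted 0.533). With 3 against 3 libraries the smallest p possible is 0.1. Without IL-10 replicate 2 the difference in the ITGA5 share was 2.75 points, and without control replicate 2 it was 3.52 points.

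**Figure D2:**
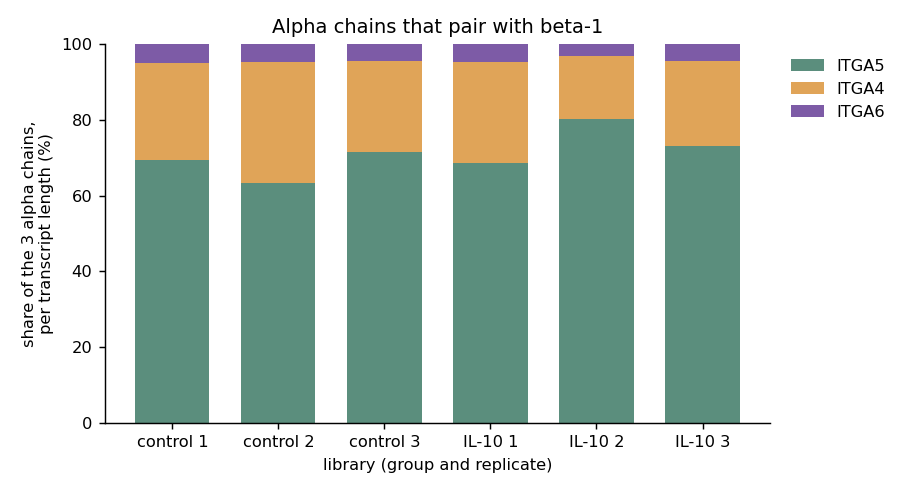
Share (%) of ITGA5, ITGA4 and ITGA6 in the summed level of these 3 beta-1 partner chains, per kb of longest transcript, in each control and IL-10 library. ITGA5 holds 63.2% to 80.2%, lowest in control replicate 2 and highest in IL-10 replicate 2.

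The summed level of these 3 alpha chains was 1.35 to 1.52 times that of ITGB1 per kb in 5 libraries and 2.22 times in IL-10 replicate 2. Genes closest to ITGB1 in profile over the 6 libraries were BLOC1S5, TMEM41B and JPX, at a root-mean-square distance of 0.02, 0.02 and 0.03, against a median of 0.31 over 11604 genes. Their transcripts had a GC content of 40.8%, 40.05% and 37.7%, beside 39.98% for ITGB1.

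ITGB2, the beta chain of LFA-1, was abundant, and its partner ITGAL was near the detection floor. ITGB2 (ENSG00000160255, chromosome 21, 44885953 to 44931989) stood at 2390, 1652 and 3133 in control and at 2242, 2883 and 3241 with IL-10. The 2 replicate 3 libraries were the highest and control replicate 2 the lowest. ITGAL (ENSG00000005844, chromosome 16, 30472658 to 30523185) stood at 2.79, 6.96 and 7.12 in control and at 2.14, 7.05 and 7.60 with IL-10, from 3, 7, 8, 2, 6 and 8 reads, with the replicate 1 libraries lowest in both groups. The groups overlapped for both chains, with a log2 fold change of 0.25 for ITGB2 (SE 0.25, 95% interval -0.31 to 0.82, adjusted p = 0.982 in limma) and -0.06 for ITGAL (SE 0.55, -1.31 to 1.20, adjusted p = 0.992). Pairs 1 to 3 gave ITGB2 log2 ratios of -0.09, 0.80 and 0.05. The fold change of ITGB2 was 0.01 with control replicate 2 left out and 0.22 with IL-10 replicate 2 left out. In ITGB2 the replicate 3 control library exceeded the replicate 1 control library by 0.39 on the log2 scale, and the IL-10 libraries of these numbers differed by 0.53 the same way.

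The other alpha chains that pair with beta-2 were also low beside ITGB2. ITGAM, the alpha chain of the complement receptor Mac-1, averaged 36.8 ± 9.73 in control libraries and 40.6 ± 6.19 in IL-10 libraries (n = 3). ITGAX, the CD11c chain, averaged 172 ± 53.7 and 182 ± 90.3. They were chosen after their values were seen. Per kb of longest transcript, ITGB2 stood at 9.73 to 11.5 times the sum of ITGAL, ITGAM and ITGAX in 5 libraries and at 20.1 times in IL-10 replicate 2. The longest annotated model of ITGB2 keeps an intron, and with the longest protein-coding transcript these values became 14.6 to 17.3 and 30.2. The log2 ratio of ITGAL to ITGB2 per kb was -8.93 ± 0.92 in control and -9.27 ± 0.77 with IL-10 (n = 3, exact permutation p = 0.7, adjusted 0.7 over 4 measures).

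Integrin chains outside the 9 genes were likewise measured at unequal levels within known pairs. ITGAV, a vitronectin receptor chain that can pair with beta-1, stood at 2160 ± 171 and 1892 ± 513, and ITGA2B, the platelet chain that pairs with beta-3, at 478 ± 91.3 and 554 ± 2.91. Their beta-3 partner ITGB3 stood at 0 to 5.70 in single libraries. ITGAV was lowest in IL-10 replicate 2, at 1301. ITGAE, which pairs with beta-7, stood at 294 to 421, and ITGB7 at 1.18 to 3.98. ITGB4, a beta chain that pairs with alpha-6, stood at 275 ± 72.5 and 331 ± 100.5. All of these but ITGAV and ITGA2B were chosen after their values were seen. Of 20 further integrin chains listed, 17 were measured and 15 tested, and 0 passed. Their median log2 fold change was 0.14, or 0.09 without IL-10 replicate 2. ITGA2, a collagen receptor chain, was the 1 chain of the 15 whose groups did not overlap, at 31.7, 31.8 and 40.9 in control and 25.7, 27.03 and 29.4 with IL-10, where 5.87% of all genes tested showed no overlap.

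**Figure D3:**
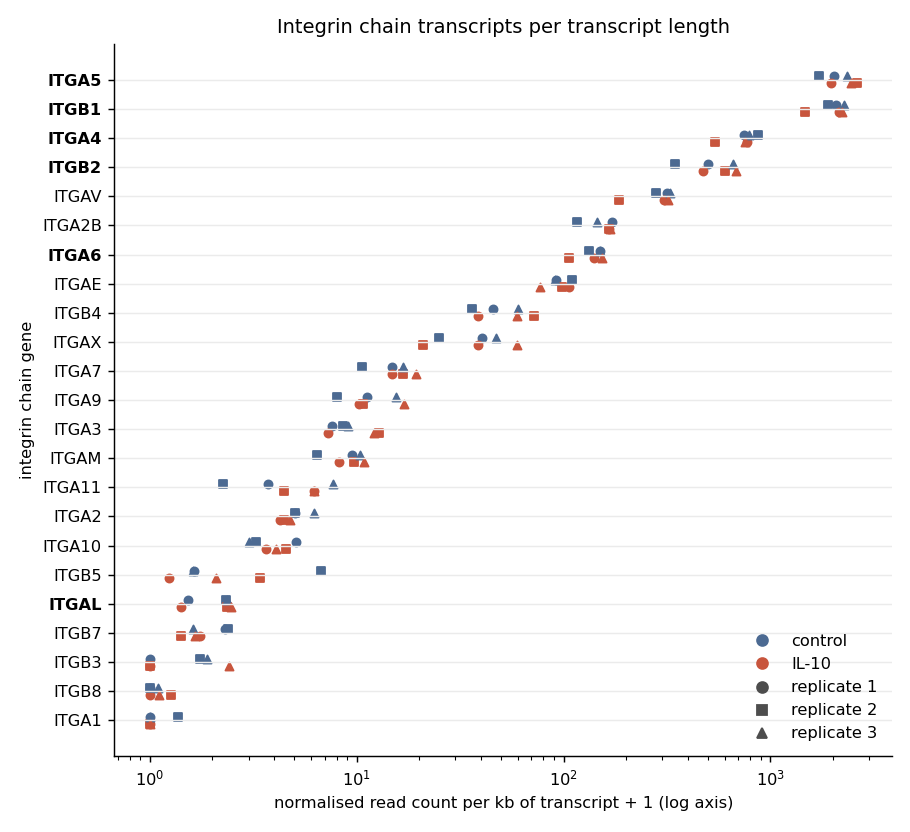
Level of 23 integrin chain genes per kb of longest transcript, plus 1, on a logarithmic horizontal axis, in control (blue) and IL-10 (red) libraries; symbols give the replicate number and bold names are the 6 integrin chains among the 9 receptor genes. ITGA5 and ITGB1 lead, ITGB2 follows ITGA4, and ITGAL lies among the lowest chains beside ITGB3 and ITGB7.

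In order of mean level per kb, the 9 genes ran ITGA5 (2190), ITGB1 (2012), ITGA4 (745), ITGB2 (542), SELPLG (227), ICAM1 (155), ITGA6 (138), CXCR4 (1.24) and ITGAL (1.08). ITGA5 exceeded 96.4% of protein-coding genes in the table by this measure, ICAM1 57.6%, CXCR4 15.6% and ITGAL 14.7%. The ranges over libraries did not overlap between ITGB1 and ITGA4, between ITGB2 and SELPLG or between ITGA6 and CXCR4. All other neighbours in the order overlapped. With the longest protein-coding transcript as length, ITGB2 (815) stood above ITGA4 (745), and ITGA5 was at 2462 beside 2012 for ITGB1.

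SELPLG (ENSG00000110876, chromosome 12, 108622277 to 108633959) was measured at a moderate level, at 561, 364 and 508 in control and at 495, 591 and 550 with IL-10. Control replicate 2 was the lowest library and IL-10 replicate 2 the highest. The log2 fold change was 0.21 (SE 0.20, 95% interval -0.25 to 0.67, adjusted p = 0.982 in limma). Pairs 1 to 3 had ratios of -0.18, 0.70 and 0.11 on this scale, and the fold change was 0.03 with control replicate 2 left out and 0.15 with IL-10 replicate 2 left out. PSGL-1 binds selectins only when its sugar chains carry fucose and sialic acid. Of the fucosyltransferases that can do this, FUT7 was at or under a floor of 3 reads in each library, with values of 0 to 3.21, and FUT4 averaged 2800 ± 135 in control libraries and 3090 ± 482 in IL-10 libraries. Both were chosen after their values were seen.

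All 14 genes listed for selectin ligand glycosylation were measured and 13 tested, and 0 passed. Their median log2 fold change was 0.08, or 0.05 without IL-10 replicate 2. GALNT1 and GALNT2, which start O-linked sugar chains, were the most abundant. GALNT1 stood at 4537 ± 239 and 4069 ± 1178 and GALNT2 at 2968 ± 195.6 and 3605 ± 928, with adjusted p = 0.982 for each in limma (n = 3). In both genes the IL-10 spread came from replicate 2, at 2716 for GALNT1 and 4673 for GALNT2. B4GALT1, a galactosyltransferase, was the 1 gene of the 13 whose groups did not overlap, at 1037 to 1115 in control and 1121 to 1247 with IL-10, beside 5.87% of all genes tested without overlap.

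ICAM1 was the 1 receptor gene of the 9 that was higher with IL-10 in all 3 pairs, as were 12.4% of all genes tested, and 13.6% of those with a mean of at least 50. No receptor gene was lower with IL-10 in all 3 pairs, as 10.6% of all genes were. ICAM1 (ENSG00000090339, chromosome 19, 10270835 to 10286615), which binds LFA-1 and is induced by inflammatory cytokines in many cells, stood at 504, 422 and 450 in control and at 560, 594 and 497 with IL-10. The groups overlapped by 1 library on each side, since IL-10 replicate 3 lay below control replicate 1. The log2 fold change was 0.26 (SE 0.17, 95% interval -0.12 to 0.64, unadjusted p = 0.155 and adjusted p = 0.982 in limma), the largest in size and the smallest p of the 9. The log2 ratios were 0.15, 0.49 and 0.14 in pairs 1, 2 and 3, and the fold change was 0.20 with control replicate 2 left out and 0.21 with IL-10 replicate 2 left out. When only pairs 1 and 3 were fitted, as pairs, the fold change was 0.15 (unadjusted p = 0.0699, adjusted p = 0.999 in limma).

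**Figure D4:**
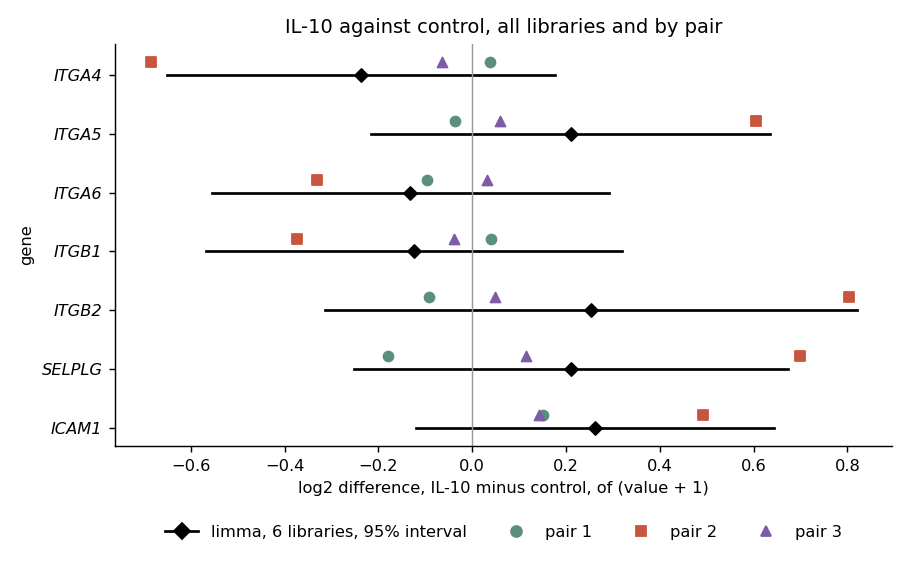
Log2 difference of IL-10 minus control for the 7 receptor genes with a mean of at least 50: limma estimate over 6 libraries with its 95% interval (black) and the log2 ratio of each replicate pair (coloured symbols). Every interval spans 0. Pair 2 lies farthest from 0 in each gene, and ICAM1 alone has all 3 pairs above 0, at 0.14 to 0.49.

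Promoter windows were searched for the STAT motif TTCNNNGAA, which reads the same on both strands, because STAT3 is the factor that IL-10 activates. The windows, from RefSeq on GRCh38.p14, ran from 250 bases before to 50 bases after an annotated start, and 6 of the 9 genes had at least 1 (CXCR4, ITGA4, ITGA5, ITGA6, ITGB1 and ICAM1, 10 windows). ICAM1 alone among them held the motif, as did 7.66% of 35116 windows searched. The match and its surroundings are shown because ICAM1 is the gene with the same direction in all pairs, and capitals mark the motif, whose first base lies 75 bases before the start (plus strand, chr19:10271035-10271063).
ICAM1: ggcgcgaggtTTCCGGGAAagcagcaccg
The RUNX core motif TGTGGT, searched on both strands because the line carries a RUNX1 fusion, was held by 13.1% of windows. Among the 6 genes only ITGA6 held it, at 1 place that lies in both of its windows, in the reverse orientation (chr2:172427339-172427364, plus strand). The match begins at base 14, with the first annotated start counted as base 1.
ITGA6: ctactcggcaACCACAattctgtcca
A match is a description of these letters and does not show that a factor binds.

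In the IL-10 library of pair 2 the direction of the receptor genes' deviation went with GC content. IL-10 replicate 2 lay below the mean of the other 5 libraries in the 3 receptor genes of lowest GC content among the 7 with a mean of at least 50, with a deviation of -0.52 in ITGB1 (39.98% GC), -0.46 in ITGA6 (42.9%) and -0.53 in ITGA4 (44.1%), on the log2 scale. It lay above that mean in the 4 others, with a deviation of 0.33 in ITGA5 (54.5%), 0.29 in ICAM1 (56.9%), 0.27 in SELPLG (59.4%) and 0.23 in ITGB2 (60.0%). Over all tested genes with a mean of at least 50, the median deviation of that library was -0.62 in the lowest of 5 equal bins of GC content and 0.78 in the highest. Control replicate 2 deviated from the other 5 libraries by -0.73 in ITGB2, -0.57 in SELPLG, -0.40 in ITGA5, -0.30 in ICAM1 and 0.29 in ITGA4, but by only -0.08 in ITGB1 and -0.06 in ITGA6. The median deviation of control replicate 2 over all these genes was 0.08 in the lowest GC bin and -0.05 in the highest, so that in this library the 4 GC-rich receptor genes were farther below 0 than the median gene of their bins. In IL-10 replicate 2 the same 4 genes, at 0.23 to 0.33, were less far above 0 than the medians of their bins, 0.51 and 0.78. GC content here is that of the longest transcript. For ITGA5 the longest protein-coding transcript has 58.7%, within the range of the highest bin (58.12% to 74.2%). After a correction of each library for GC content the fold changes were 0.14 for ICAM1, 0.12 for ITGA5, 0.11 for ITGB2, 0.07 for SELPLG, 0.03 for ITGB1, -0.04 for ITGA6 and -0.16 for ITGA4, with unadjusted p from 0.225 to 0.784 in limma. In pairs 1 and 3 the 7 genes differed little between control and IL-10: the log2 ratio was -0.18 to 0.15 in pair 1 and -0.06 to 0.14 in pair 3, against -0.69 to 0.80 in pair 2.

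**Figure D5:**
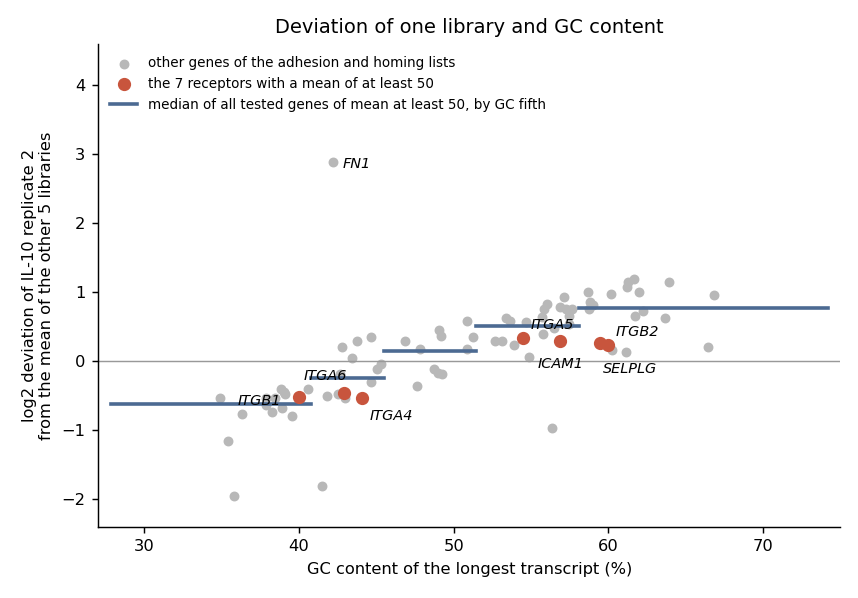
Log2 deviation of IL-10 replicate 2 from the mean of the other 5 libraries (vertical axis) against GC content of the longest transcript (horizontal axis, %) for the 7 receptor genes with a mean of at least 50 (red) and 74 other listed adhesion and homing genes (grey); blue lines are medians of all tested genes with a mean of at least 50, in 5 bins of GC content that hold equal numbers of genes. The 3 receptor genes under 45% GC lie below 0 and the 4 above 54% lie above 0.

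Transcripts of fibronectin and of the laminin chains LAMB1 and LAMC1, parts of matrix proteins that these receptors bind, were highest in the libraries that held liver transcripts. FN1, which encodes fibronectin, was chosen after its values were seen and stood at 31.7, 554 and 16.01 in control and at 21.4, 326 and 23.7 with IL-10. Only the replicate 2 libraries were high, as they were for the summed liver genes, of which 13 of 15 stood above 3 reads in each replicate 2 library and 2 or 3 of 15 elsewhere. LAMB1 and LAMC1, laminin chains, and ITGB5, a vitronectin receptor chain, were also highest in control replicate 2, at 48.7, 28.8 and 24.9, and next in IL-10 replicate 2, at 24.7, 11.75 and 10.6. The other 4 libraries reached at most 23.1, 2.67 and 4.75 in these genes, which were picked once their values had been seen. LAMA5, a laminin chain of higher read count, went otherwise and was highest in IL-10 replicate 3. It stood at 183, 194 and 188 in control and at 158, 217 and 225 with IL-10. The part of liver cell RNA in these values, and in those of the receptor genes, was not tested. None of the 7 receptor genes with a mean of at least 50 lay above the other 5 libraries in both replicate 2 libraries: 6 lay below in control replicate 2, and ITGA4 lay below in IL-10 replicate 2. ITGAL, with 2 to 8 reads per library, lay above in both, by 0.45 and 0.47 on the log2 scale, and CXCR4, with 0 to 6 reads, lay below in both. In each comparison the other 5 libraries include the other replicate 2 library, so these deviations do not measure the liver part.

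VCAM1 and SELP, counter-receptors of the vessel wall, were at or under 1.07 in every library. Of 14 listed ligands and counter-receptors 11 were measured, and ICAM2 and LAMA5 had the highest normalised read counts, not divided by length, with control and IL-10 means of 165 ± 26.3 and 205 ± 66.5 for ICAM2 and of 188 ± 5.67 and 200.2 ± 36.6 for LAMA5. By mean level per kb of transcript, ICAM2 (138) still led and LAMA5 (16.99) was below ICAM3 (57.5), MADCAM1 (17.7) and FN1 (17.7). The FN1 mean came from control and IL-10 replicate 2, at 60.4 and 35.5 per kb. In the other libraries FN1 stood at 1.75 to 3.45 per kb, below LAMA5, which stood at 13.8 to 19.7 in every library. The ranges of MADCAM1 and LAMA5 over libraries overlapped. Of the 9 ligands and counter-receptors tested, 0 passed, with a median log2 fold change of -0.26. That median is the value of FN1 itself (SE 1.35), and it was -0.32 over the 8 genes tested without IL-10 replicate 2. ICAM2, ICAM3, MADCAM1 and LAMA5 were the 4 with a positive fold change. The 5 negative ones were FN1, LAMB1 and LAMC1, highest in control replicate 2, and SPP1 and TNC, with 0 to 8 reads per library. Endothelial markers (4 of 5 listed were measured) summed to 3.53 to 10.4 per library and fibroblast markers (2 of 6 measured) to 29.9 to 53.4. No measured gene of the fibroblast list but PDGFRB stood above 3 reads in all libraries. Monocyte markers summed to 1.18 to 6.96. Other marker lists were not low in sum: sums were 1631 to 1974 for epithelial, 1645 to 2661 for T and NK cell and 979 to 1610 for B cell markers. Of these, 3 of 6 epithelial, 3 of 6 T and NK cell and 3 of 4 B cell genes stood above 3 reads in all libraries. Whether such cells were present was not tested.

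The machinery that switches integrins on from inside was abundant and did not pass the test. TLN1, which encodes talin-1, averaged 8445 ± 381 in control libraries and 10410.5 ± 3368 in IL-10 libraries, and FERMT3, which encodes kindlin-3, the blood cell protein that helps talin, at 9435 ± 1484 and 12244 ± 7001. In these genes, too, the IL-10 spread came from replicate 2, with FERMT3 at 9237, 20247 and 7249 in IL-10 replicates 1 to 3. All 20 genes listed for integrin activation were tested, 0 passed, and the median log2 fold change was 0.12, or -0.01 without IL-10 replicate 2.

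Other adhesion molecules and chemokine receptors gave the same count. CD44, the hyaluronan receptor of blasts, stood at 19052 ± 1937 and 20020 ± 2025, and CD164, a mucin-like sialoprotein of progenitors, at 5227 ± 212 and 4687 ± 942. The 15 tested genes of this list had 0 past the threshold and a median of 0.02, or 0.0045 without IL-10 replicate 2. CXCR2, a receptor for interleukin-8, was the most abundant of the other chemokine receptors, at 123, 130 and 142 in control and 143, 155 and 147 with IL-10, so that its groups did not overlap (log2 fold change 0.17, unadjusted p = 0.385 in limma). CXCR6 followed at 31.7 ± 4.39 and 26.7 ± 9.23. Of 19 listed receptors 14 were measured and 11 tested, with a median of -0.08, or -0.40 over the 9 tested without IL-10 replicate 2. Over the 7 lists, 112 of 124 genes were measured, 102 were tested, 0 passed in limma, 0 had an unadjusted p under 0.05, and 3 had groups that did not overlap, where 5.87% of all genes tested did. Each list and its genes' values rest on bulk RNA, in which fewer cells with a transcript and less of it per cell cannot be told apart.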

How the data were processed

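RNA sequencing libraries (Trizol RNA, Illumina TruSeq kit, per the labels' protocols) were grouped by the treatment and replicate number in their titles. The label on the deposited table says FPKM and the plan assumed it. Its values proved to be a signal that the authors deposited after scaling: in every library 100% of them were whole multiples, within 0.01 read, of 1 step, so each is a read count over a size factor. GRCh38, hg38 and edgeR 3.18.1 are named in the submitters' processing notes, with no role given. Strand use, like the aligner and counter, is not given in the sources used here. Each library held 20750115 to 24222897 recovered reads. Intervals and floors (3 reads) cover counting error only.

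Symbols came from a table of gene names (26883 of 27576 identifiers matched), and positions, transcript lengths and GC content (longest transcript) from GENCODE 29 on GRCh38. Genes with a value of 1 or more in 3 or more libraries (all 9 receptor genes among them) were tested two-sided with limma 3.58.1 under R 4.3.3, using log2(value + 1), a trend in the variance prior and Benjamini-Hochberg adjustment over all genes. Fold changes on this scale are understated for low genes. edgeR 4.0.16 and DESeq2 1.42.0 were alternatives on recovered reads; limma and edgeR were first tried on simulated data. Other alternatives changed the pseudocount, filter, scaling, weights, GC correction, replicate block and libraries included. The longest protein-coding transcript as gene length was added after seeing the data. Shares were tested by exact permutation (scipy 1.17.1).

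Genes named by rule are the 9, the 2 of highest mean per list, any past the threshold, and the 3 nearest in profile to CXCR4 and to ITGB1. Other genes of the lists, among them VCAM1, SELP, SPP1, TNC, ICAM3, MADCAM1, ITGA2 and B4GALT1, were named outside this rule, with their values known. The 9 genes, the lists and the tests were chosen with earlier results of these data known. Libraries of the same number deviated together (correlations of 0.367, 0.605 and 0.726 over 11605 genes, each over 0.1). Among unlike numbers, control 1 with IL-10 3 (0.208) and control 3 with IL-10 1 (0.176) were also over 0.1, but below the same-number values. The rest were at -0.692 to -0.312. Deviations from a group mean sum to 0, so these correlations are not independent of each other. The numbers were therefore taken to pair the libraries, although the labels give only a shared number.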

Additional observations from a re-analysis of the deposited data

How the results depend on the processing

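The count of genes past the threshold was 0, and differed in 2 of the alternative fits: limma on pairs 1 and 3 with the replicate block (11 genes) and edgeR with the replicate block (1 gene, SCGB3A1); none was a receptor gene or a listed gene. The replicate block on all 6 libraries in limma gave 0 genes and changed no call. No receptor gene passed under any alternative, and ITGA4, ITGA5 and ICAM1 kept their direction in all 27, at -0.34 to -0.013 for ITGA4, 0.0076 to 0.33 for ITGA5 and 0.14 to 0.33 for ICAM1, so that for ITGA4 and ITGA5 the range reaches nearly 0. Uncalled signs changed as follows. With sample weights the log2 fold change was 0.024 for ITGB1, -0.014 for ITGB2 and -0.055 for SELPLG, and in pairs 1 and 3 with or without the block it was 0.00020, -0.022 and -0.033. ITGB1 had 0.033 with GC correction, with or without the block. ITGAL had 0.046 with quantile normalization and 0.17 in edgeR without control replicate 2. Leaving out 1 library gave -0.24 to 0.026 for ITGA6, -0.42 to 0.41 for ITGAL, -0.23 to 0.063 for ITGB1, and -0.81 to 0.11 for the log2 ratio of ITGAL to ITGB2. For these sign changes the cause was not tested; some fits held fewer libraries by construction. Shares of ITGA4, ITGA5 and ITGA6 kept their direction under every length and left-out library. CXCR4 was given no fold, and ITGAL did not pass a filter of at least 10. Depth limits CXCR4 and ITGAL; the other 7 genes had at least 366 reads in each library.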
